A study of Drosophila melanogaster with 6 samples.

Results

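The genes for the serotonin transporter and the 5 serotonin receptors of Drosophila melanogaster were compared between male flies that had lived alone and males that had lived in company. They were found on the array as every probe set whose annotation gave exactly 1 gene symbol, where that symbol was SerT, 5-HT1A, 5-HT1B, 5-HT2A, 5-HT2B or 5-HT7. This gave 8 probe sets for the 6 genes, out of 18769 probe sets other than controls (6 of the 11982 genes that had a probe set of their own). SerT, 5-HT1A, 5-HT2A and 5-HT7 had 1 probe set each, and 5-HT1B and 5-HT2B had 2 each. A probe set is the group of short probes that measures 1 transcript or a few related ones, and its value is a fluorescence intensity that carries no count of molecules.

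The single-housed males were kept 1 per vial and the group-housed males 10 per vial, in both cases for 6 days after eclosion, and all were frozen in the late afternoon. Each sample was total RNA from a pool of 20 heads on a 1-colour Affymetrix array, with 3 arrays per housing group described as biological replicates. The labels name no strain, genotype or transgene for either group, so nothing but the housing is given as different between them. By the title of the series, males housed alone were the more aggressive.

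Serotonin is a monoamine transmitter made by a small set of neurons in the fly brain. It acts on receptors of the G protein-coupled class, and SerT takes it back up into the neurons that released it. 5-HT1A and 5-HT1B lower cyclic AMP in the cells that carry them, 5-HT7 raises it, and 5-HT2A and 5-HT2B belong to the type known in mammals for acting through phospholipase C and calcium. In flies this system is known for its part in aggression, sleep, feeding, circadian timing and memory.

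Of the 8 probe sets, 7 passed the filter on low signals, and these covered all 6 genes. For each of the 7, the difference between the housing groups was smaller than the residual SD between arrays of a group. The eighth, a dim 5-HT2B probe set, had a larger difference of -0.56 in a fit without the filter, with a limma adjusted p of 0.655. Of the 7, 0 passed the threshold of adjusted p 0.05 in limma (0 also at an unadjusted p of 0.05), against 0.0152% of all 13138 probe sets tested. By direction these were 0.00761% higher and 0.00761% lower in single-housed heads. At the unadjusted level the share over all probe sets was 8.24%, made up of 4.57% higher and 3.67% lower. The single-housed and group-housed arrays overlapped for each of the 8 probe sets, while 14.2% of all probe sets tested had groups that did not overlap. The 7 differences, single-housed minus group-housed on the scale of log2(intensity + 16), lay between -0.16 and 0.12, with 4 above 0 and 3 below. Their median was 0.0086, and the median over all probe sets tested was -0.017. RNA came from whole heads, so fewer cells of a type and less RNA per cell cannot be told apart.

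**Figure D1:**
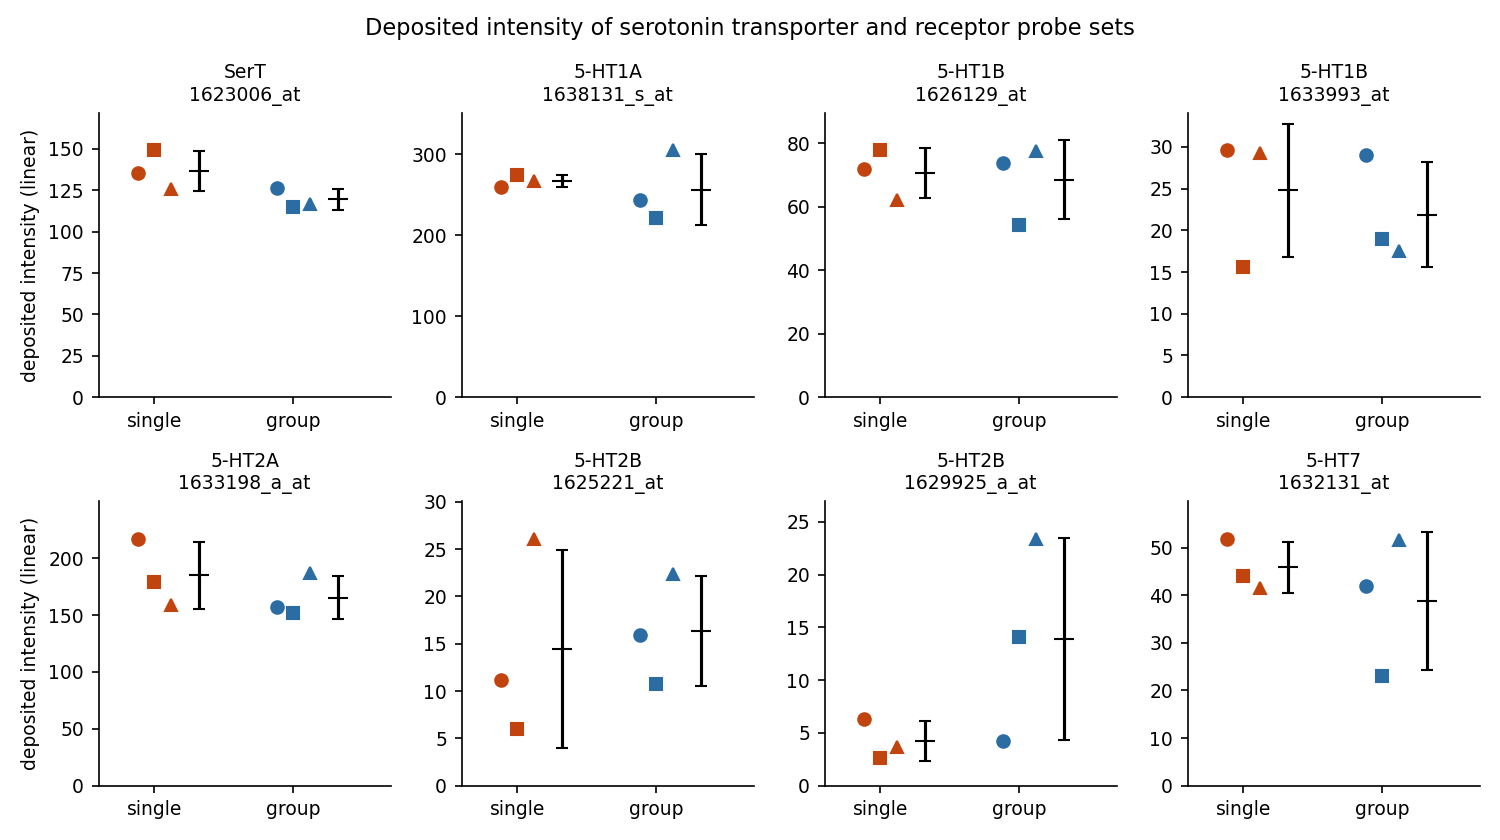
Deposited intensity (linear axis from 0) of each of the 8 probe sets on the 3 single-housed arrays (orange) and the 3 group-housed arrays (blue), with circle, square and triangle for replicates 1, 2 and 3 and the mean ± SD in black. The groups overlap in every panel, and the arrays lie between 2.64 and 26.1 for the 5-HT2B probe sets, and between 221 and 305 for 5-HT1A.

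SerT, the plasma membrane transporter that ends serotonin signalling, was measured by the probe set 1623006_at. Its deposited intensities were 135.5, 149.3 and 125.5 on single-housed arrays and 126.5, 115.1 and 116.9 on group-housed arrays. As deposited, 2 of the 3 single-housed arrays lay above all group-housed arrays, and the third lay just below the highest of them. After quantile normalization, which gives all arrays the same distribution of values, the log2 values were 7.08, 7.28 and 7.23 against 7.18, 7.21 and 7.04. The highest 2 arrays were then single-housed and the lowest was group-housed, with the others interleaved. The group means were 7.20 ± 0.10 and 7.14 ± 0.093 (SD, n = 3). The difference was 0.055 (SE 0.099, limma adjusted p 0.919), a 1.04-fold higher value with a 95% interval from 0.888 to 1.22. The exact permutation test gave p = 0.5, where the smallest possible with 3 arrays against 3 is 0.1. SerT lay above 0 in each of its 19 alternatives, though some of them (filter, eBayes and replicate block settings) cannot change a difference. The values ran from 0.0019 without group-housed replicate 3 to 0.21 when each array was scaled to the neuron markers elav, nSyb and Syn. Limma's adjusted p ran from 0.714 to 0.999. With the deposited scaling the difference was 0.17, in a setting where the median over all probe sets was itself 0.099.

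The receptors that lower cyclic AMP come from a pair of genes on the same chromosome arm, with 3 protein-coding genes lying between them in the RefSeq gene table. 5-HT1A, known in flies for its part in sleep and in the control of insulin-producing cells, was measured by 1638131_s_at. The deposited intensities were 259.4, 274.8 and 266.6 on single-housed arrays and 243.3, 220.7 and 305.1 on group-housed arrays. The single-housed arrays were close together and lay inside the wider range of the group-housed arrays. Normalized log2 values were 7.92, 8.07 and 8.25 on single-housed arrays and 8.03, 8.09 and 8.33 on group-housed arrays. The lowest array was single-housed and the highest group-housed, with the other 4 interleaved. The difference was -0.071 (SE 0.12, 95% interval -0.34 to 0.19, limma adjusted p 0.912, exact permutation p = 0.6). Its sign was not stable. It was 0.066 with the deposited scaling (median over all probe sets 0.099) and 0.087 after scaling to the neuron markers. With single-housed replicate 1 or group-housed replicate 3 left out it was 0.0071 or 0.021. The suffix s of this probe set marks probes that the array's maker found in transcripts of more than 1 gene or gene model, although the annotation lists 5-HT1A alone.

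5-HT1B, a receptor known from the clock neurons and the mushroom bodies of the fly brain, was measured by 2 probe sets. The probe set 1626129_at had deposited intensities of 71.9, 77.8 and 62.1 on single-housed arrays and 73.9, 54.2 and 77.6 on group-housed arrays. The 2 lowest arrays came from different groups, and so did the 2 highest. Its normalized log2 values of 6.32, 6.49 and 6.33 against 6.51, 6.31 and 6.51 spanned 0.20 over all 6 arrays. The difference was -0.063 (SE 0.11, 95% interval -0.32 to 0.19, limma adjusted p 0.917). It turned to 0.042 with the deposited scaling (median over all probe sets 0.099) and 0.095 with the scaling to neuron markers. The dimmer probe set 1633993_at had deposited intensities of 29.6, 15.6 and 29.2 against 29.1, 19.0 and 17.5. Both groups held arrays near the top and near the bottom of that range. Its difference was 0.038 (SE 0.20, 95% interval -0.42 to 0.49, limma adjusted p 0.977). It was below 0 with single-housed replicate 1 or 3 left out (-0.027 and -0.041), with group-housed replicate 3 left out (-0.12) and with array weights (-0.058). The probe sets of 5-HT1B thus stood on opposite sides of 0, each within 1 SE of it, and gave no common direction.

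5-HT2A, a receptor of the 5-HT2 type that is known in flies for its part in feeding and in the regulation of lifespan by diet, was measured by 1633198_a_at. Deposited intensities were 217.3, 178.8 and 158.5 on single-housed arrays and 156.9, 152.2 and 187.2 on group-housed arrays. Single-housed replicate 1 stood above the other 5 arrays. After normalization this array was still the highest, at 7.68, and the values were 7.50 and 7.54 on the other single-housed arrays and 7.45, 7.59 and 7.66 on the group-housed arrays. The difference was 0.0086 (SE 0.098, 95% interval -0.21 to 0.23, limma adjusted p 0.990, exact permutation p = 1). Leaving out single-housed replicate 1 gave -0.046 and leaving out group-housed replicate 1 gave -0.050. Among the 8 probe sets this was the difference nearest to 0, with an interval that reached from 0.862-fold to 1.17-fold.

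5-HT2B, known from sleep-regulating neurons of the fly's central complex, was the dimmest of the receptors relative to the filter, which left out probe sets with a mean log2 value under 4.69. The probe set 1625221_at passed it with a mean of 4.95. Its deposited intensities were 11.1, 6.02 and 26.1 on single-housed arrays and 15.9, 10.7 and 22.3 on group-housed arrays. The single-housed group held both the lowest and the highest array. The difference was -0.16 (SE 0.23, 95% interval -0.68 to 0.35, limma adjusted p 0.887), and leaving out single-housed replicate 2 or 3 gave 0.013 or -0.40. At this signal the size also followed the added intensity, with -0.40 for an addition of 1 and -0.056 for an addition of 64.

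The other 5-HT2B probe set, 1629925_a_at, had a mean of 4.61 and did not pass the filter. Deposited intensities were 6.35, 2.64 and 3.68 on single-housed arrays and 4.27, 14.1 and 23.4 on group-housed arrays. Group-housed replicates 2 and 3 stood above the other 4 arrays, while group-housed replicate 1 lay between single-housed arrays. Normalized values were 4.50, 4.26 and 4.23 against 4.39, 5.06 and 5.21. In a fit of all probe sets without the filter the difference was -0.56 (SE 0.22, 95% interval -1.07 to -0.048), with an unadjusted p of 0.0354 and a limma adjusted p of 0.655. The exact permutation test gave p = 0.2. The value stayed below 0 in all 17 alternatives that could be fitted or computed, though the eBayes and replicate block settings cannot change it. It ran from -1.72 for the ratio of mean deposited intensities to -0.20 for an addition of 64. The fits that dropped a single array gave between -0.81 (group-housed replicate 1 dropped) and -0.39 (group-housed replicate 3 dropped). The unadjusted p was above 0.05 in 4 of these 6 fits, reaching 0.12 without group-housed replicate 3. With additions of 1 and 64 the differences were -1.46 and -0.20. The 2 probe sets of 5-HT2B had values on the same side of 0 in this setting, but on the arrays they did not move together. Single-housed replicate 3 was the highest array for 1625221_at and the lowest for 1629925_a_at on the normalized scale.

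5-HT7, which raises cyclic AMP and is known in flies from courtship, mating and olfactory memory, was measured by 1632131_at. Deposited intensities were 51.9, 44.1 and 41.5 on single-housed arrays and 42.0, 23.0 and 51.6 on group-housed arrays. Group-housed replicate 2 stood apart below the other 5 arrays. After normalization it was at 5.44, and the others lay between 5.85 and 6.02. The difference was 0.12 (SE 0.16, 95% interval -0.25 to 0.49, limma adjusted p 0.887, exact permutation p = 0.9). It rested on that array, since without group-housed replicate 2 it was -0.054 (limma adjusted p 0.928).

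**Figure D2:**
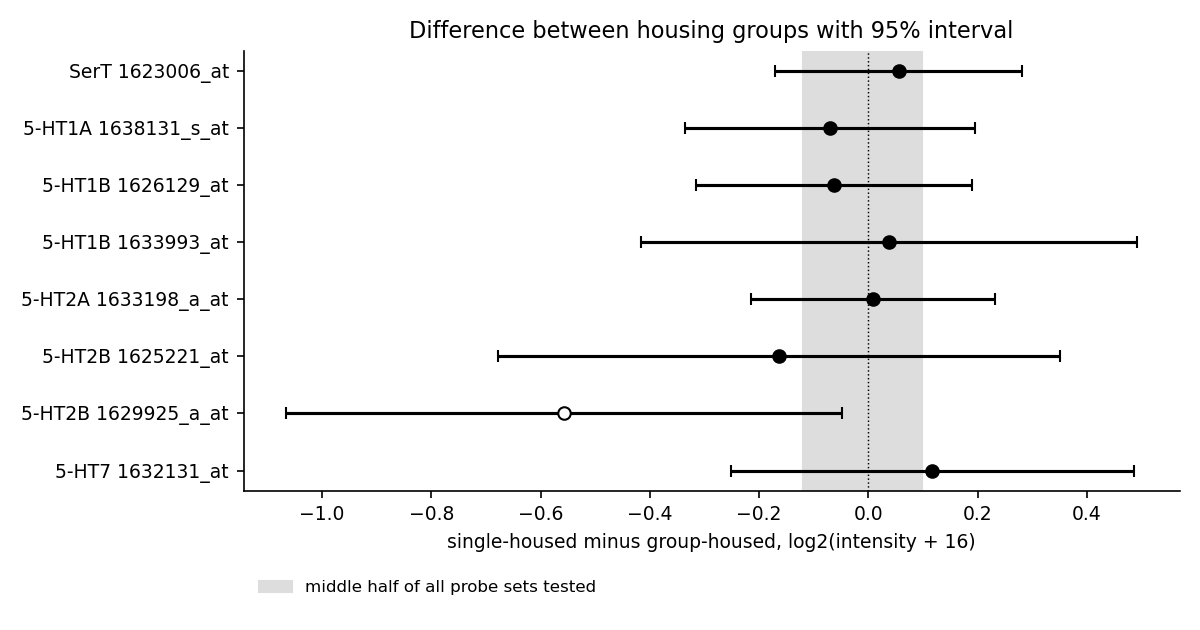
Difference between the housing groups for each probe set (x axis, single-housed minus group-housed on the log2(intensity + 16) scale) with its 95% interval from limma. Filled points passed the filter, the open point (1629925_a_at) did not and comes from the fit without a filter, and the grey band is the interquartile range over all probe sets tested, -0.12 to 0.097. All 7 intervals of filled points include 0.

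The intervals show the range of differences that these arrays leave, on the scale of intensity + 16 after quantile normalization. For SerT, 5-HT1A, 5-HT2A and the brighter 5-HT1B probe set, the 95% interval reached at most 1.22-fold higher (SerT) and 1.26-fold lower (5-HT1A) in single-housed heads. For 5-HT7 and the dimmer 5-HT1B probe set it reached 1.40-fold and 1.41-fold higher, and for 5-HT2B 1.60-fold lower (1625221_at) and 2.09-fold lower (1629925_a_at, fit without the filter). The added intensity compresses the fold of dim probe sets. With an addition of 1, the interval reached 1.61-fold higher for 5-HT7, 1.78-fold higher for 1633993_at, 2.73-fold lower for 1625221_at and 7.24-fold lower for 1629925_a_at. Scaling also moved the bounds, and for SerT the interval reached 1.40-fold higher with the deposited scaling and 1.48-fold higher when scaled to the neuron markers. In the latter setting it reached 1.33-fold higher for 5-HT1A, 1.38-fold for 1626129_at and 1.39-fold for 5-HT2A. For 1633993_at and 5-HT7 it reached 1.59-fold and 1.60-fold higher there. The residual SD between arrays of a group was 0.097 for SerT, 0.10 for 5-HT2A and 0.11 for 5-HT1B (1626129_at), below the median of 0.156 over all probe sets tested. It was 0.16 for 5-HT1A, 0.22 for 5-HT7, 0.28 for 5-HT1B (1633993_at) and 0.31 for 5-HT2B (1625221_at).

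No array was high or low for the whole set. Counting the 7 tested probe sets, 5 lay above their own mean on single-housed replicate 3, group-housed replicate 1 and group-housed replicate 3, and 3 lay above it on each of the other arrays. The median deviation of the 7 from their own means ran from -0.086 on single-housed replicate 1 to 0.10 on group-housed replicate 3. On group-housed replicate 3, SerT was at its lowest (deviation -0.13) while 5-HT1A was at its highest (0.22).

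**Figure D3:**
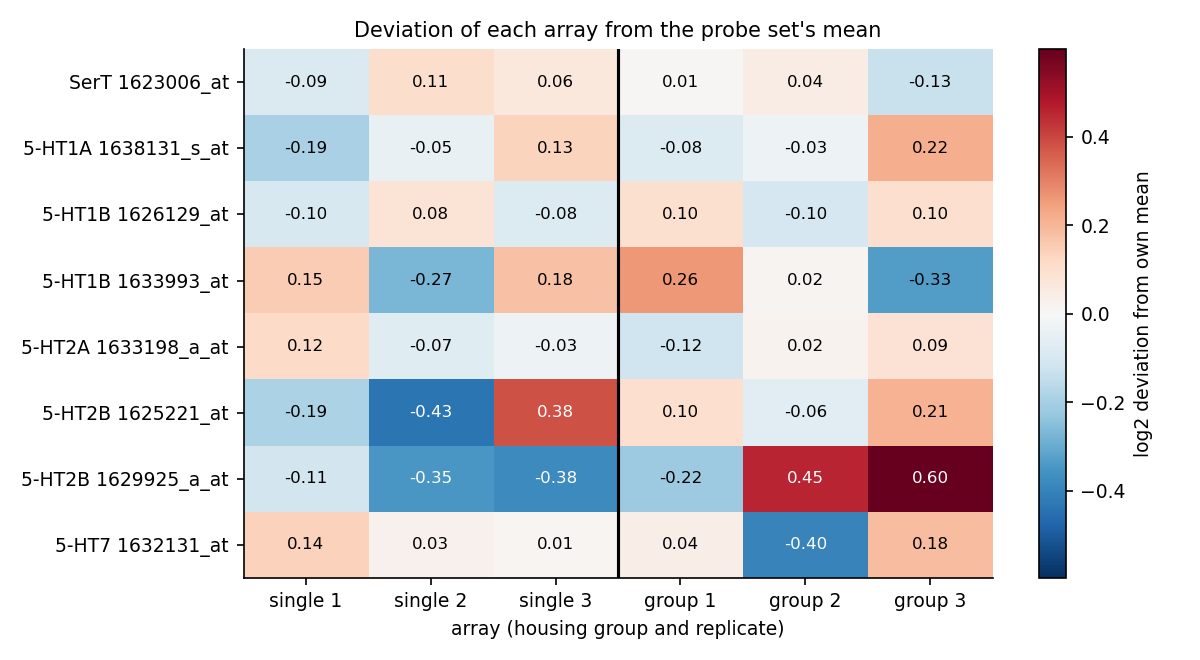
Deviation of each normalized log2 value (colour and printed number) from the mean of its probe set over the 6 arrays, with single-housed arrays left of the line and group-housed arrays right of it. The largest deviations belong to the 5-HT2B probe sets (0.60 and 0.45 on group-housed replicates 3 and 2, -0.43 on single-housed replicate 2) and to 5-HT7 on group-housed replicate 2 (-0.40).

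The genes with the most similar profile over the 6 arrays were found by the root mean square difference between normalized log2 values, each centred on its own mean. For SerT these were flap and CG15506 (differences of 0.020 and 0.022, against SerT's own deviation of 0.084). For 5-HT1A they were CG32726 and inaE, a lipase gene of phototransduction (0.022 and 0.029, own deviation 0.14). For 5-HT7 they were BNIP3 and COX5B, both genes of mitochondria (0.034 and 0.041, own deviation 0.19). None of the serotonin genes was among the 2 closest of another. The closest were M7BP and mRpS2 for 5-HT1B (1626129_at), CG7745 and Wnk for 5-HT2A, and CG32037 and FucTB for 5-HT2B (1625221_at). With 6 arrays and 13138 probe sets close profiles are easily found, and these names are a description.

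The other genes of the serotonin pathway were taken from lists. Synthesis and packaging had 8 probe sets for 5 genes tested, and 0 passed the threshold in either direction (limma; 0 also at unadjusted p 0.05), with a median difference of 0.024. The decarboxylase gene Ddc, which makes both serotonin and dopamine, was at -0.14 (SE 0.10, limma adjusted p 0.763). The vesicular monoamine transporter gene Vmat had 4 probe sets that disagreed in sign, from -0.12 (SE 0.12) to 0.11 (SE 0.13). The 3 probe sets for genes of the cofactor tetrahydrobiopterin lay between 0.0037 and 0.0997. With the deposited scaling Ddc was at 0.047 and the lowest Vmat probe set at 0.012, so their sign was not stable. The median over all probe sets was itself 0.099 in that setting, which holds for the lists below too. The tryptophan hydroxylase genes Trhn and Hn were not analysed here.

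Clearance and turnover had 9 probe sets for 7 genes, SerT among them, with a median of -0.064 and 0 past the threshold (limma; 1 higher and 0 lower at unadjusted p 0.05). That 1 was speck, which encodes an arylalkylamine N-acetyltransferase that modifies monoamines. Its normalized log2 values were 10.35, 10.40 and 10.41 on single-housed arrays and 10.04, 10.28 and 9.96 on group-housed arrays. The groups did not overlap, as for 6.23% of all probe sets tested in that direction, and the difference was 0.29 (SE 0.090, limma adjusted p 0.499). The dopamine transporter gene DAT, which clears dopamine as SerT clears serotonin, was at 0.058 (SE 0.11, limma adjusted p 0.930). The median of the list was 0.070 with the deposited scaling. Besides SerT and speck the list holds prt, ine, bdg, DAT and List, so its median does not describe serotonin clearance alone.

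Signalling components downstream of the receptors had 16 probe sets for 14 genes tested, with 3 above 0 and 13 below and a median of -0.075. The threshold was passed by 0 (limma; at unadjusted p 0.05 there was 1 higher and 1 lower). krz, which encodes the non-visual arrestin that turns off G protein-coupled receptors, had values of 6.98, 6.83 and 6.89 on single-housed arrays and 6.50, 6.59 and 6.49 on group-housed arrays. The groups did not overlap, as for 6.23% of all probe sets tested in that direction, and the difference was 0.38 (SE 0.096, limma adjusted p 0.415). The phospholipase C gene Plc21C was at -0.26 (SE 0.084, limma adjusted p 0.499) with groups that did not overlap, as for 7.95% in that direction. With the deposited scaling Plc21C was at -0.12 and krz at 0.48. Among G protein alpha subunits, the probe set of Galphaq with the smallest p was at -0.26 (SE 0.11), or -0.047 with the deposited scaling. Galphas was at -0.17 (SE 0.077), or 0.0079 with the deposited scaling, and its groups did not overlap in the main values. Of the 16 probe sets, groups did not overlap for 1 higher and 3 lower in single-housed heads. Over all probe sets tested these shares were 6.23% and 7.95%. The median of this list depended on the scaling, being 0.059 with the deposited scaling and 0.083 when scaled to the neuron markers.

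Genes listed for the identity of serotonin neurons, mostly transcription factors known from the nerve cord, had 7 probe sets for 7 genes. One of them, nkd, encodes an inhibitor of Wnt signalling and not a transcription factor. The list had a median of -0.034 (0.072 with the deposited scaling) and 0 past the threshold (limma; 0 also at unadjusted p 0.05). The homeobox gene en, named engrailed, was at 0.19 (SE 0.12, limma adjusted p 0.706). Leaving out single-housed replicate 1 or 3 gave a list median of 0.041 or 0.0085, and leaving out group-housed replicate 3 gave 0.053.

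Receptors for the other biogenic amines and acetylcholine were the set most like the serotonin receptors. Of 19 probe sets, 12 for 11 genes were tested, with a median of -0.14 and 0 past the threshold (limma; 0 higher and 2 lower at unadjusted p 0.05). The 2 were Octbeta1R, an octopamine receptor, at -0.35 (SE 0.097, limma adjusted p 0.441), and DopEcR, a receptor for dopamine and ecdysone, at -0.27 (SE 0.087, limma adjusted p 0.499). Octbeta1R had values of 8.10, 8.20 and 8.32 on single-housed arrays and 8.42, 8.59 and 8.64 on group-housed arrays. With the deposited scaling its difference was -0.21. Its 2 other probe sets did not pass the filter and disagreed, at 0.11 and -0.48 in the fit without it. The groups of both genes did not overlap, as for 7.95% of all probe sets in that direction. With the deposited scaling the median of these receptors was -0.016 and that of the 7 serotonin probe sets 0.10, beside 0.099 over all probe sets. The median of these receptors was 0.020 when scaled to the neuron markers. The difference between the serotonin receptors and these receptors was not tested.

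**Figure D4:**
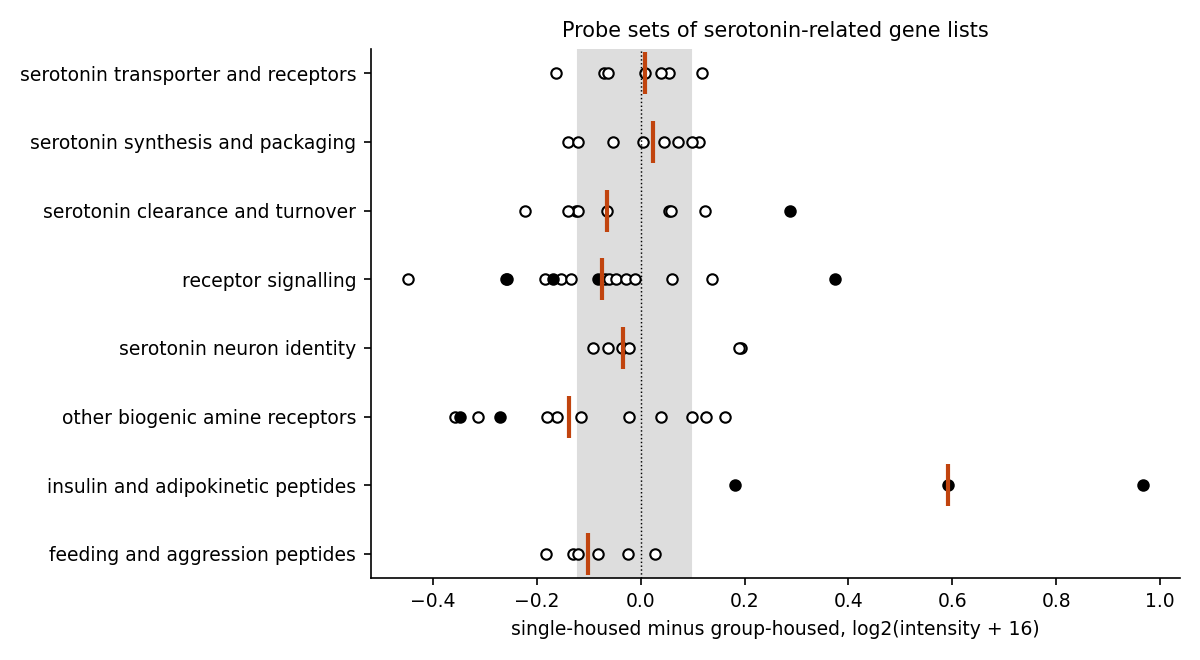
Difference between the housing groups (x axis, log2 scale) for every tested probe set of the serotonin transporter and receptors and of the 7 related lists. Filled points mark probe sets whose groups do not overlap, red bars the list medians, and the grey band the interquartile range over all probe sets tested (-0.12 to 0.097). The serotonin transporter and receptor row holds no filled point, while the 3 insulin and adipokinetic peptides all lie above 0.

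Peptides of feeding and aggression had 6 probe sets for 6 genes, with a median of -0.10 and 0 past the threshold (limma; 0 also at unadjusted p 0.05). NPFR, the receptor gene for neuropeptide F, was at -0.18 (SE 0.12, limma adjusted p 0.716), and the median of the list was 0.055 with the deposited scaling. The metabolic peptides, which include insulin-like peptides whose producing cells are known to respond to serotonin, had 3 genes tested. None passed the threshold in limma, and their median was 0.59. At unadjusted p 0.05 in limma there were 3 higher and 0 lower, against 4.57% and 3.67% of all probe sets tested. Ilp2, an insulin-like peptide of the brain, was at 9.37, 9.52 and 9.46 on single-housed arrays and 9.27, 9.33 and 9.20 on group-housed arrays. Its groups did not overlap, as for 6.23% of all probe sets tested in that direction, and the difference was 0.18 (SE 0.077, limma adjusted p 0.602). Ilp5 and Akh, the adipokinetic hormone gene, were at 0.97 (SE 0.17, limma adjusted p 0.178) and 0.59 (SE 0.098, limma adjusted p 0.158). Their groups did not overlap either. Without group-housed replicate 2 both passed the threshold, at 1.18 (limma adjusted p 0.0166) and 0.68 (limma adjusted p 0.0346). In that fit 47 probe sets passed over the whole array, against 2 in the main fit. Both also passed with the deposited scaling (1.12 and 0.76) and scaled to elav, nSyb and Syn (1.13 and 0.75). In these settings 78 and 77 probe sets passed over the whole array. With brp included in the scaling to neuron markers only Ilp5 of these peptides passed (limma adjusted p 0.037, against 0.054 for Akh). In the other fits neither Ilp5 nor Akh passed, apart from Ilp5 with the replicate block (limma adjusted p 0.0283).

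No marker of another cell type passed the threshold in limma. Fat body markers (5 of 5 genes on the array) had a summed normalized intensity of 23320 to 25110 in single-housed and 13420 to 19930 in group-housed heads, and gut protease markers (6 of 6) 747.5 to 2709 against 73.4 to 857.8, so the gut ranges overlapped. At unadjusted p 0.05 in limma, 4.57% of all probe sets tested were higher in single-housed heads. So were 3 of 4 tested fat body probe sets and 4 of 6 gut probe sets, while apolpp was at 0.058 and lambdaTry at -0.036. Their part in the peptide values was not tested. Neuron markers (4 of the 6 symbols listed) summed to 2649 to 3133 in single-housed and 3093 to 3745 in group-housed heads, so the ranges overlapped. When all values were scaled to elav, nSyb and Syn on the same array, 0 of the 7 serotonin probe sets passed the threshold (limma), with a median of 0.17. These 3 genes were themselves at -0.17, -0.042 and -0.26. The 3 tested probe sets of brp, a further neuron marker, were at 0.067, 0.013 and -0.0062, and with brp included in the scaling the median was 0.12, again with 0 of 7 past the threshold (limma). Markers of head tissue were present. The photoreceptor gene trp lay between 11.57 and 11.78 and the glial gene repo between 8.88 and 9.01 on every array. The gut protease gene Jon65Aiii reached 9.93 on single-housed replicate 2, and the yolk protein gene Yp3 lay between 6.95 and 7.67. Whether RNA of other tissues or of females was present was not tested. The markers of male accessory gland and testis stayed near the filter limit of 4.69, at 4.03 to 5.57.

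**Figure D5:**
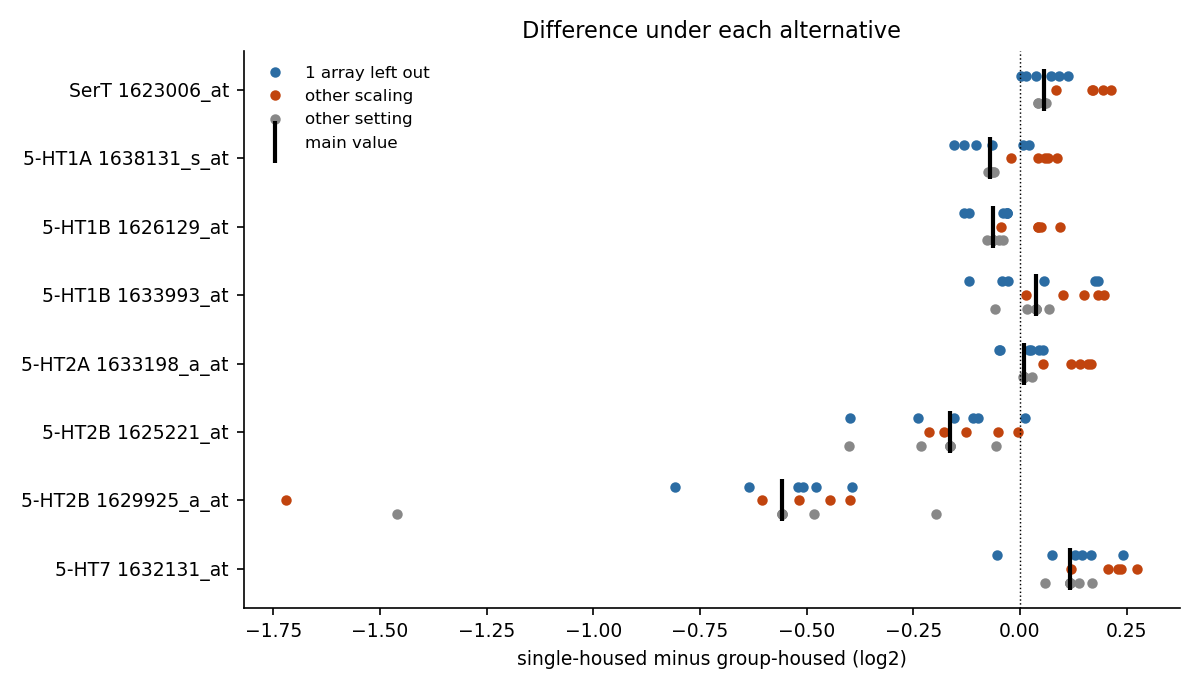
Difference between the housing groups (x axis, log2) for each probe set under every alternative, with the main value as a black bar, values with 1 array left out in blue, values with another scaling in orange and other settings in grey. SerT stays above 0 and 1629925_a_at below 0 throughout, and each of the other 6 probe sets crosses 0 in at least 1 setting. The filter, eBayes and replicate block settings cannot change a difference.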

How the data were processed

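The authors deposited linear intensities for each probe set, from biotin-labelled RNA per the labels' protocols. How they were summarised, background corrected and scaled is not stated in these sources. Array medians of the deposited intensities ran from 24.2 to 31.6. Of 18952 probe sets, 183 controls were left out. The platform annotation gave 1 gene for 13647 probe sets, of which 13544 matched the RefSeq table of assembly Release 6 plus ISO1 MT by gene ID.

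Here log2(intensity + 16) was taken and the arrays were quantile normalized, since their log2 medians differed by 0.24 (limit 0.2). The dimmest 30% of probe sets by mean were dropped, and 13138 were tested with limma 3.58.1 (R 4.3.3, eBayes with an intensity trend, 2-sided, Benjamini-Hochberg). The fit was run on simulated independent normal values as a check of the code, and no result here rests on it. Exact permutation tests were 2-sided. The number of arrays (3 per group) limits the precision.

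Named were all probe sets of the 6 genes, up to 4 members per list by smallest p, and the 2 genes most alike. Names outside this rule (among them DAT, nkd, lambdaTry, trp and repo) were chosen after their values were seen. The members and lists were chosen with earlier results of these data known. Alternatives were 4 other scalings (neuron markers, without and with brp, added after seeing the data), the ratio of mean deposited intensities (also added), pseudocounts of 1 and 64, no filter or a 50% filter, eBayes without trend or robust (statmod 1.5.0), array weights, the replicate block and each array left out.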

Additional observations from a re-analysis of the deposited data

How the results depend on the processing

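No serotonin transporter or receptor probe set passed adjusted p 0.05 in any of the 148 values under alternatives. The ratios of mean deposited intensities, 8 of these values, carry no test. Of the 148 values 18 changed sign, but those from other filters, eBayes settings or the replicate block could not, since these leave the difference unchanged. 5-HT1A turned to 0.066 with the deposited scaling, 0.087 scaled to neuron markers, 0.042 with brp among those markers and 0.058 as a ratio of mean deposited intensities, and ran from -0.15 to 0.021 when arrays were dropped in turn. 5-HT1B (1626129_at) turned to 0.042, 0.095, 0.049 and 0.043 in the same 4 settings. 5-HT1B (1633993_at) turned to -0.058 with array weights and ran from -0.12 to 0.18 when single arrays were left out. In those same fits 5-HT2A ran from -0.050 to 0.055, 5-HT2B from -0.40 to 0.013 (1625221_at) and from -0.81 to -0.39 (1629925_a_at), and 5-HT7 from -0.054 to 0.24. Reversals with 1 array left out were -0.027, -0.041 and -0.12 for 1633993_at, 0.0071 and 0.021 for 5-HT1A, -0.046 and -0.050 for 5-HT2A, 0.013 for 1625221_at and -0.054 for 5-HT7. With the 50% filter, 1625221_at, 1633993_at and 1629925_a_at were not tested. Among list genes, Ddc turned to 0.047 and 0.019 and 1 Vmat probe set to 0.012 and 0.038 with the deposited scaling and scaled to neuron markers, and Galphas to 0.0079 with the deposited scaling. Scaling to neuron markers, without or with brp, subtracts a single value from each array. Each of these scalings therefore raised all differences by the same amount. The cause of the other changes was not tested.

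The number of probe sets past adjusted p 0.05 over the whole array was 2, against 78 with the deposited scaling, 11 with median centring, 77 scaled to neuron markers, 21 with brp among those markers, 5 with array weights, 1 with a pseudocount of 64, without a filter and with the 50% filter, 0 without the trend, and 0 to 47 with 1 array left out (47 without group-housed replicate 2, 0 without single-housed replicate 3). The deposited scaling moved the median over all probe sets from -0.017 to 0.099. Same-numbered arrays of the housing groups correlated at 0.032, 0.11 and 0.33 in their deviations from group means, and 1 of 3 single-housed arrays correlated best with its own number, so the numbers were not taken as pairs. The fit with the replicate block called 32 probe sets, with 0 of the serotonin genes among them. Each replicate number holds 1 array of each housing group, so the block could not change a difference, only its SE and p. Ilp5 was among those called with the block (limma adjusted p 0.0283). Both 5-HT2B probe sets are limited by low signal.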
